A study of Caenorhabditis briggsae with 10 samples.

Results

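The 2 wild-type strains HK104 and AF16 of the nematode Caenorhabditis briggsae were compared in the cold state, by RNA-seq of whole worms. The comparison used the HK104 cold and the AF16 cold groups, 2 libraries each, which are 4 of the 10 samples of the series. HK104 represents temperate and AF16 tropical populations, per the series title. All groups were staged as mid or late L4 larvae, the last larval stage, and held for 24 hours at 20 °C, after which the cold groups were moved to 4 °C for 60 hours. Beside them stand the HK104 control and the AF16 control groups (2 libraries each), collected at the end of the 20 °C period, and 1 cold and 1 control library of the AF16/HK104 hybrid. Controls did not spend the further 60 hours at 20 °C, so cold and elapsed time cannot be told apart wherever cold and control worms are compared. Both strains and the hybrid carry the genotype label WT, and the direction of the hybrid cross is not stated.

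C. briggsae is a relative of the laboratory worm C. elegans that lives in both tropical and temperate regions, and its strains fall into lineages that differ in the temperatures they tolerate. A difference in transcript level between strains can come from DNA variants next to a gene, which act on their own copy alone, or from variants elsewhere, which act through diffusible molecules on both copies of a gene. In a hybrid both copies share the same cells, so the reads from each copy can be compared within 1 library. The question of the comparison was which transcripts differ between the strains once both have been held in extreme cold, and which of these differences were there before.

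The table held raw counts for 23175 genes, of which 13503 passed the count filter and were tested. Total counts were 15753393 and 15889837 in the HK104 cold libraries and 15360979 and 18362210 in the AF16 cold libraries. Genes are named by their WormBase IDs, because the tables used here do not pair these IDs with symbols, positions or functions: 0 of the 23175 IDs matched the RefSeq gene table of 22727 genes. For the same reason no tissue or stage markers could be read, and in whole worms fewer cells of a type and less RNA per cell cannot be told apart. Levels are given in CPM, a gene's count relative to the total of its library after TMM scaling, and differences are log2 fold changes of HK104 over AF16. The labels do not say whether the replicates came from separate cultures, so p-values measure the spread between these libraries, which may be technical. That spread was estimated jointly over all 8 parental libraries, cold and control.

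After cold, strain was the main axis among the 4 libraries. In a principal component analysis of log2 CPM the first component held 72.4% of the variance, and the HK104 libraries lay at -67.5 and -62.2 on it and the AF16 libraries at 66.6 and 63.1. The second component held 18.9% and placed the first library of each strain at 28.9 (HK104) and 36.9 (AF16) and the second at -29.1 (HK104) and -36.6 (AF16). The names of both first cold libraries end in a letter, per the labels, which is not explained there, and the second AF16 cold library names another lane than the second HK104 one. Replicates differed by a median of 0.37 on the log2 scale in HK104 cold worms and 0.51 in AF16 cold worms, against 0.15 in HK104 controls and 0.20 in AF16 controls.

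HK104 and AF16 cold worms differed at 1709 of the 13503 genes (12.7%) at a false discovery rate (FDR) below 0.05 in edgeR's quasi-likelihood test. Of these, 956 genes (7.08% of those tested) were higher in HK104 and 753 (5.58%) were lower. The called differences were mostly large: 869 of the 956 higher genes and 722 of the 753 lower genes passed 2-fold, 513 and 489 passed 4-fold, and 163 and 238 passed 16-fold. Smaller differences are less often called with 2 libraries per group. In simulated counts 25 of 97 2-fold changes were called (25.8%), and 82 of 96 4-fold changes (85.4%). The median log2 fold change was 2.10 for genes higher in HK104 and -2.72 for genes lower in it, or 2.05 and -2.21 with genes of very few counts in a strain set to a lower bound (defined below). Over all tested genes the median was 0.06. The majority of higher genes depended on the scaling: with DESeq2 size factors in place of TMM, 787 genes were higher and 867 lower in HK104, and the median of all tested genes was -0.07. At all 1709 genes the CPM values of the 2 HK104 libraries lay entirely above or entirely below those of the 2 AF16 libraries. Such separation was met by 3214 genes with HK104 higher (23.8%) and 2691 with HK104 lower (19.9%), so 4196 separated genes were not called.

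The number of called genes rested on the single cold libraries. Without the first HK104 cold library 727 genes were called, and without the other cold libraries, in turn, between 1374 and 1673. Genes called with the same direction in all 4 of these fits numbered 326 of the 956 higher genes (34.1%) and 272 of the 753 lower genes (36.1%). A fit of the 4 cold libraries alone called 1481 of 11890 genes (12.5%), and 1305 of the 1709 genes were among them.

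Called genes were mostly genes of low and middle level. The tested genes were divided into 3 equal parts of 4501 by their mean expression over the 8 parental libraries. In the lowest part, with a median of 0.752 CPM after cold, 850 genes (18.9%) were called, beside 12.7% of all tested genes. In the middle part, with a median of 9.23 CPM, 727 genes (16.2%) were called. In the highest part, with a median of 115 CPM, 132 genes (2.93%) were called, although the interval of the difference was narrowest there. The median half-width of the 95% interval was 1.41 on the log2 scale in the lowest part, 0.69 in the middle part and 0.52 in the highest part. The median absolute log2 fold change of called genes was 1.10 in the highest part, 1.64 in the middle part and 3.61 in the lowest part (2.64 in the lowest part with lower bounds). Where the interval is wider, a gene needs a larger estimate to be called, so this order is partly built in.

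The most abundant transcripts of the cold worms hardly differed between the strains. Among the 500 genes with the highest mean CPM after cold, which spanned 323 to 10770 CPM, 4 were higher and 3 lower in HK104. The median absolute log2 difference of these 500 genes was 0.14. For 437 of them (87.4%) the whole 95% interval lay within a 2-fold difference in either direction. Across all tested genes that held for 5654 (41.9%), none of which was called. For the other 6140 of the 11794 genes without a call (52.1%) the interval reached beyond 2-fold, so a difference of that size was not excluded there.

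**Figure D1:**
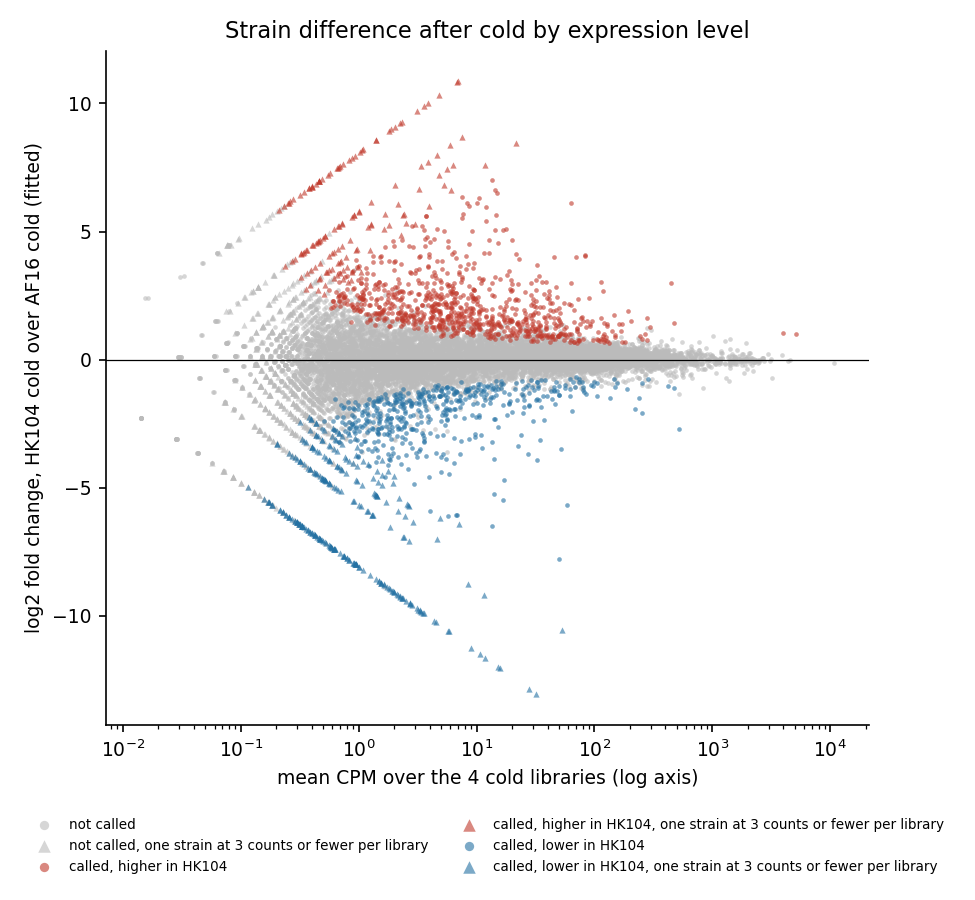
Fitted log2 fold change of HK104 cold over AF16 cold against the mean CPM of the 4 cold libraries, 1 point per tested gene. Called genes (956 higher and 753 lower in HK104) thin out above 100 CPM, and triangles mark genes at which 1 strain had at most 3 counts in each cold library, whose fitted values are no bounds.

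Part of the difference consisted of transcripts that were nearly absent in 1 strain. A gene was taken to be at the floor in a strain when each of its cold libraries held at most 3 counts. That number equals a mean of 0.172 CPM in AF16 and 0.191 CPM in HK104 cold libraries. HK104 was at the floor and AF16 above it at 589 genes (4.36% of those tested), of which 275 were called. The reverse, AF16 at the floor and HK104 above it, held at 307 genes (2.27%), of which 142 were called. Genes at the floor in HK104 thus made up 36.5% of the 753 genes called lower, and genes at the floor in AF16 14.9% of the 956 called higher. The definition used the tested libraries, and a gene at the floor passed the count filter only through other groups. The direction of these calls was therefore fixed and is no result. Most of these transcripts were scarce in the other strain too. Where HK104 was at the floor, the level in AF16 cold worms had a median of 1.23 CPM (range 0.229 to 106), and 13 of the 275 genes reached 10 CPM. Where AF16 was at the floor, the level in HK104 cold worms had a median of 1.33 CPM (range 0.422 to 42.9), and 10 of the 142 genes reached 10 CPM. Set against 3 counts per library, the 142 genes were at least 2.46- to 250-fold higher in HK104 (median bound 7.75-fold), and the 275 genes at least 1.20- to 556-fold lower (median bound 6.45-fold).

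The genes with the largest bounds, which were singled out after their values were seen, show the pattern. WBGene00271672 had 668 and 681 counts in HK104 cold worms, against 2 and 2 in AF16 cold worms. It had 689 and 616 counts in HK104 controls, against 2 and 3 in AF16 controls. WBGene00028424 had 1 and 1 counts in HK104 cold worms, against 1344 and 2354 in AF16 cold worms. In controls it had 2 and 2 counts in HK104, against 1388 and 2295 in AF16. Both were called after cold (FDR = 4.46e-06 and FDR = 1.17e-05), and in both the level of the expressing strain was close in cold and control worms.

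More genes were at the floor in HK104 alone than in AF16 alone in the control state as well, with 347 against 185 genes. Of the 275 called genes at the floor in HK104 cold worms, 183 (66.5%) were at the floor in HK104 controls too, and the other 92 were above it there with a median of 0.451 CPM. Of the 142 called genes at the floor in AF16 cold worms, 83 (58.5%) were at the floor in AF16 controls, and the other 59 had a median of 0.366 CPM in those controls. The genome to which the reads were aligned is not given in the sources used here, and whether reads of both strains aligned equally well at these genes was not tested.

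Among genes expressed in both strains the balance between higher and lower calls was not stable. At least 1 CPM in all 4 cold libraries was reached by 9293 genes, of which 539 were called higher in HK104 (5.80%) and 249 lower (2.68%). Fold changes of called genes were smaller here, which the minimum of 1 CPM partly builds in: 149 of the 539 higher genes and 43 of the 249 lower genes passed 4-fold. With DESeq2 size factors the numbers were 414 higher and 326 lower. Leaving out the second AF16 cold library turned the majority round, with 360 higher and 568 lower genes. Leaving out the first HK104 cold library gave 182 higher and 150 lower, and leaving out the second gave 609 higher and 120 lower. These fits could not test the excess of called genes at the floor in HK104 over those at the floor in AF16. Both sets were defined once, from all 4 cold libraries, as 589 and 307 genes, and kept in every fit. Similar shares of the 2 sets were called in the main analysis (46.7% and 46.3%), so the excess of calls follows the sizes of the sets.

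**Figure D2:**
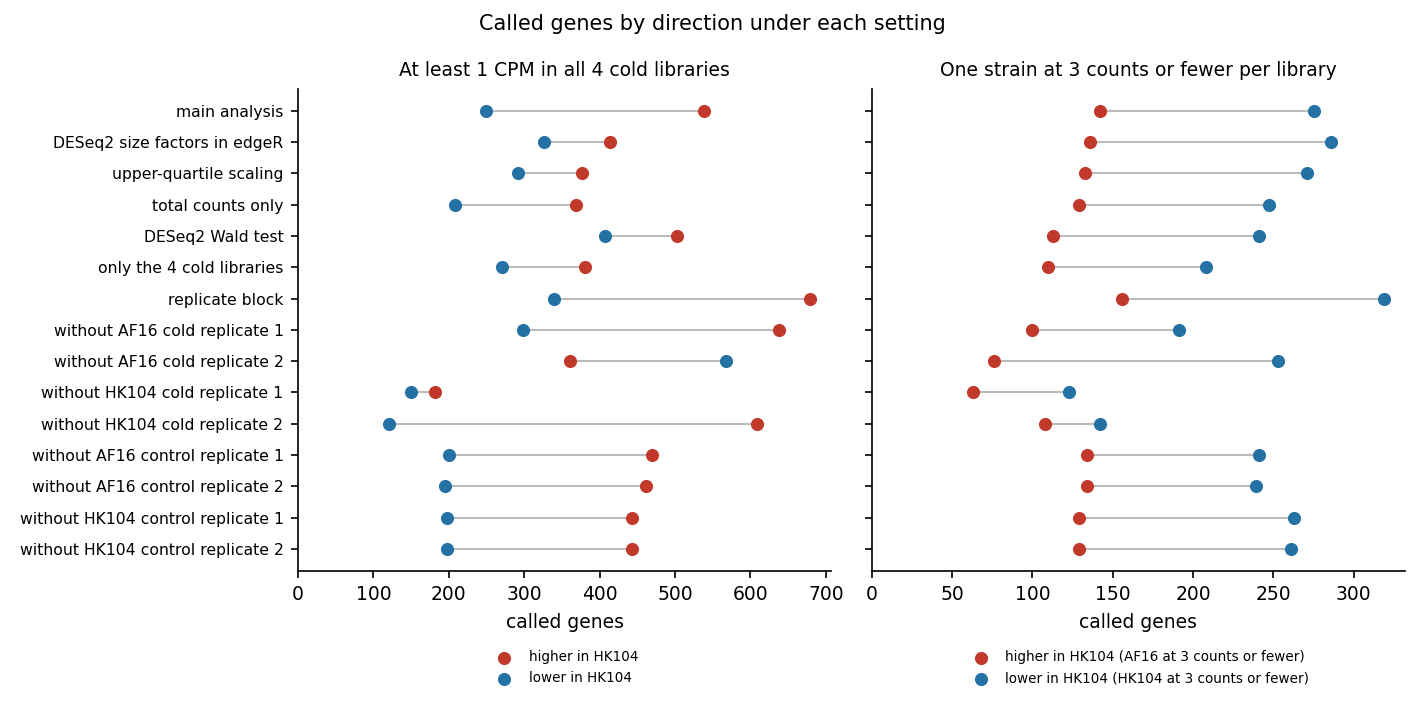
Called genes by direction in the main analysis and under other scalings, tests and sets of libraries. At genes with at least 1 CPM in all 4 cold libraries (left) the majority changed side without the second AF16 cold library. On the right are called genes at the floor in HK104 (275 in the main analysis) and in AF16 (142). They come from fixed sets of 589 and 307 genes, defined once from all 4 cold libraries, so their order over the 15 fits shown is not a test.

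Of the genes expressed in both strains and called also in the fit of the 4 cold libraries, 362 higher and 200 lower genes met the rule for naming, and the 2 with the largest differences in each direction are given. WBGene00025909 had 152 and 95.8 CPM in HK104 cold worms, against 2.28 and 1.27 CPM in AF16 cold worms. Its log2 fold change was 6.12 ± 0.39 (SE; FDR = 2.65e-05 in edgeR's quasi-likelihood test, as for the FDR values that follow). In controls it had 9.30 and 6.71 CPM in HK104, against 6.53 and 5.22 CPM in AF16, and it was not called there (log2 fold change 0.45, FDR = 0.608). The gene rose with cold in HK104 (log2 fold change 3.95, FDR = 5.38e-05) and fell in AF16 (-1.72, FDR = 0.00702).

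WBGene00024619 had 44.4 and 32.9 CPM in HK104 cold worms, against 1.71 and 1.32 CPM in AF16 cold worms, a log2 fold change of 4.66 ± 0.37 (SE; FDR = 6.25e-05). It was higher in HK104 in controls too, with 138 and 112 CPM in HK104, against 2.34 and 1.02 CPM in AF16 (log2 fold change 6.21, FDR = 1.97e-05). The HK104 levels fell with cold (log2 fold change -1.69, FDR = 0.00281). The strain groups did not overlap in either state.

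In the other direction, WBGene00024112 had 2.996 and 1.52 CPM in HK104 cold worms, against 153 and 77.6 CPM in AF16 cold worms. Its log2 fold change was -5.66 ± 0.42 (SE; FDR = 4.39e-05). WBGene00038719 had 3.67 and 4.49 CPM in HK104 cold worms, against 73.2 and 50.1 CPM in AF16 cold worms (log2 fold change -3.92 ± 0.27, SE; FDR = 4.17e-05). Both were lower in HK104 in controls as well, with log2 fold changes of -5.10 (FDR = 7.71e-05) and -3.21 (FDR = 9.34e-05). The AF16 libraries of WBGene00024112 were nearly 2-fold apart after cold, yet far above both HK104 libraries. The log2 differences between the first libraries and between the second libraries of the strains, whose common direction the naming rule fixed, were 5.99 and 6.11 (WBGene00025909), 4.61 and 4.51 (WBGene00024619), -5.62 and -5.57 (WBGene00024112) and -4.27 and -3.45 (WBGene00038719).

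**Figure D3:**
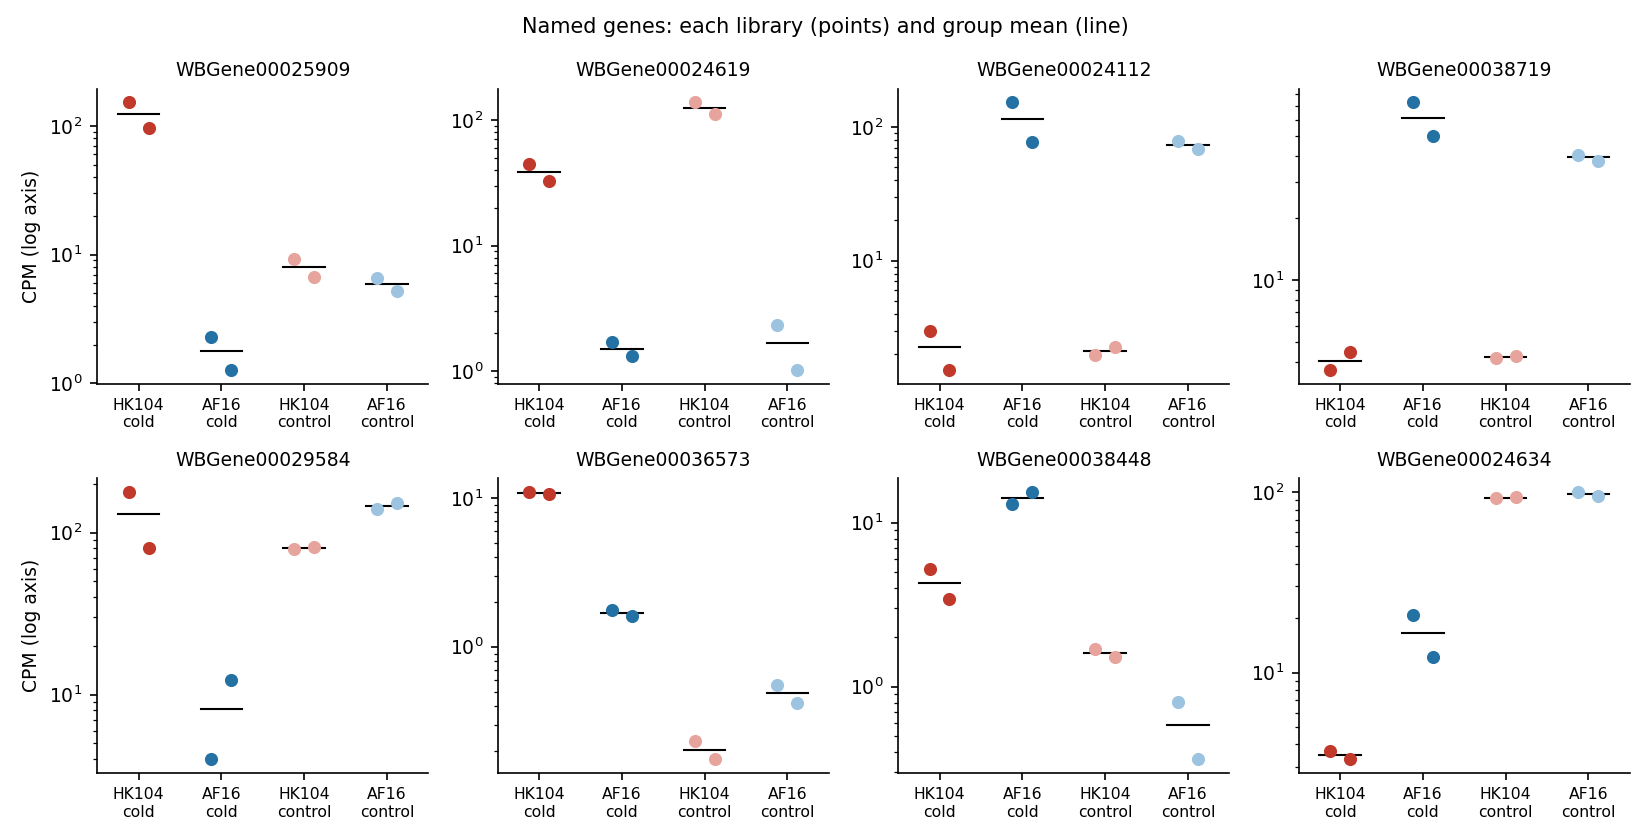
CPM (log axis) of the 8 named genes in each parental library (points, first library on the left) with the group mean (line). In the top row 3 genes hold their strain difference in both states and WBGene00025909 does not, and in the bottom row the 4 genes have a strain difference that changed with cold.

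Each called gene was next set beside the strain difference in controls, which was tested in the same fit on other libraries and shares the scaling, the filter and the estimate of spread with it. Of the 1709 genes called after cold, 691 (40.4%) were called with the same direction in controls, which is 73.0% of the 947 genes (7.01% of those tested) called in controls. The share differed between the directions: 396 of the 753 genes lower in HK104 (52.6%) were also called lower in controls, and 295 of the 956 higher genes (30.9%) were also called higher, beside 4% and 3.01% of all tested genes called in these directions in controls. That difference in shares was not tested. The numbers moved with single libraries: without 1 control library, each of the 4 in turn, 456 to 520 genes were called in controls and 396 to 436 in both states with the same direction, which is 26.2% to 28.9% of the genes then called after cold. Without the first HK104 cold library 429 genes were called in both states, 59% of the genes then called after cold. At the 295 genes the median log2 fold change was 3.21 after cold (2.69 with lower bounds) and 3.01 in controls, and at the 396 genes it was -3.64 (-2.59 with lower bounds) and -3.42. One gene, WBGene00036263, was called in opposite directions, and it is named for that reason alone. It had 14 and 10 counts in HK104 cold worms, against 62 and 113 in AF16 cold worms, and 6 and 6 counts in HK104 controls, against 0 and 0 in AF16 controls.

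The other 1017 genes (59.5%) were called after cold and not in controls. There were 297 such genes (40.9%) without the first HK104 cold library, and 1074 to 1117 (71.1% to 73.8%) without 1 control library. The spread was estimated jointly over both states, although replicates differed more after cold than in controls. Joint estimation can understate the spread after cold and overstate it in controls, so the numbers called in the 2 states are not directly comparable. Separated libraries were more frequent in controls (31.8% and 29.2% of tested genes) than after cold (23.8% and 19.9%). A missing call is not a missing difference, and many of the 1017 genes leaned the same way without cold. Of the 661 such genes higher in HK104, 481 (72.8%) had the same sign in controls, and at 372 (56.3%) both HK104 control libraries lay above both AF16 control libraries, as they did at 31.8% of all tested genes. Their median log2 fold change was 1.85 after cold (1.82 with lower bounds) and 0.35 in controls. Of the 356 such genes lower in HK104, 328 (92.1%) had the same sign in controls, and at 269 (75.6%) both HK104 control libraries lay below both AF16 control libraries, against 29.2% of all tested genes. Their median log2 fold change was -2.17 after cold (-1.87 with lower bounds) and -0.82 in controls. At 149 of the 661 and 152 of the 356 genes (22.5% and 42.7%) the control difference was at least 0.5 times the cold difference on the log2 scale.

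The calls were also counted in the fits without a cold library, a difference that was not tested. In all 4 fits without a cold library, 170 of the 295 higher genes called in both states (57.6%) and 223 of the 396 lower ones (56.3%) were called. Of the remaining genes, 156 of 661 higher ones (23.6%) and 49 of 357 lower ones (13.7%, WBGene00036263 among the 357) were.

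The cold response of each strain shares the cold libraries with the strain difference, so its values are given without a comparison. At the 661 genes called higher after cold alone, the median log2 change with cold was 0.43 in HK104 and -1.05 in AF16. At the 356 genes called lower after cold alone it was -1.30 in HK104 and -0.04 in AF16. At genes called in both states the medians lay near 0, with 0.11 in HK104 and -0.01 in AF16 for higher genes, and 0 in HK104 and -0.11 in AF16 for lower genes. Over all tested genes they were 0.01 in HK104 and -0.06 in AF16.

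**Figure D4:**
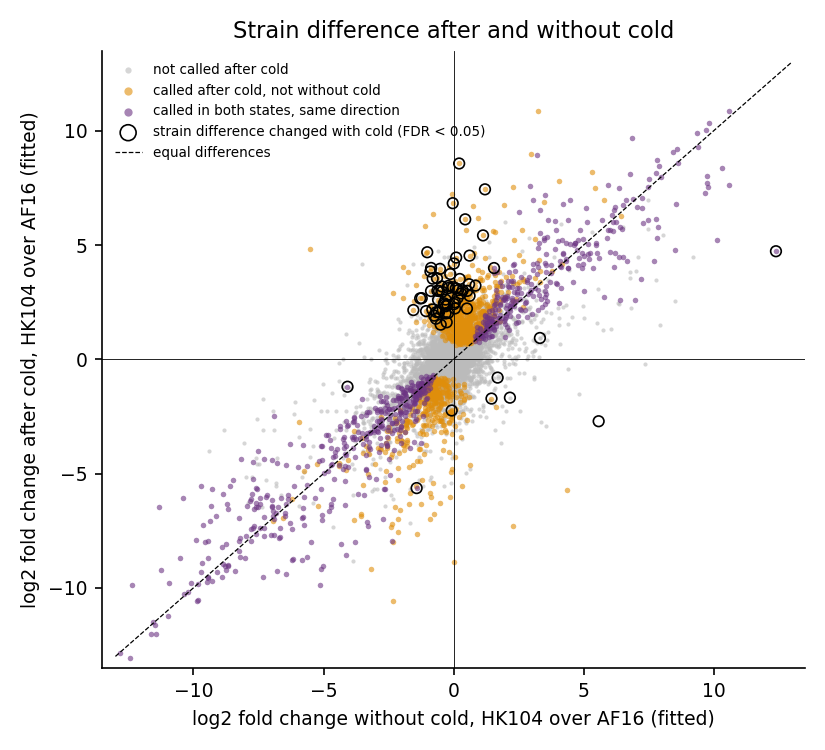
Fitted log2 fold change of HK104 over AF16 after cold (vertical axis) against that in controls (horizontal axis), 1 point per tested gene. The 691 genes called in both states lie along the dashed line of equal differences, and of the 67 circled genes, whose strain difference changed with cold by the test of that change, most lie above it near the vertical axis.

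Whether the strain difference itself changed with cold was tested in the same fit. At 67 genes (0.496% of those tested) it did at an FDR below 0.05, with 59 changes toward HK104 (0.437%) and 8 toward AF16 (0.0592%), and 978 genes had an unadjusted p below 0.05. Of the 67 genes, 64 were called after cold, and 57 were higher in HK104 after cold with no call in controls. For the 59 genes the median log2 fold change of HK104 over AF16 was 2.99 after cold and -0.27 in controls. Of the 1017 genes called after cold and not in controls, 57 of the 661 higher genes (8.62%) and 2 of the 356 lower genes (0.562%) passed this test. The change is the cold difference minus the control difference, from the same libraries. The overlaps of this test with the calls in each state are thus partly built in, and no conclusion is drawn from them. The count rested on single libraries: no gene passed without the first HK104 cold library (edgeR, 808 genes with an unadjusted p below 0.05), 1 gene passed without the second AF16 cold library, and 93 passed without the second HK104 cold library. With a control library left out, between 1 and 13 genes passed.

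Toward HK104, 39 genes met the rule for naming, which asks for at least 1 CPM in all 4 cold libraries, and genes below that minimum with larger fitted changes are not named. After WBGene00025909, WBGene00029584 had the largest change among the 39. It had 179 and 80.8 CPM in HK104 cold worms, against 3.99 and 12.3 CPM in AF16 cold worms (log2 fold change 4.00, FDR = 0.000812). In controls it had 78.9 and 81.3 CPM in HK104, against 140 and 152 CPM in AF16 (log2 fold change -0.86, FDR = 0.374). The transcript thus fell in AF16 with cold (log2 fold change -4.16, FDR = 0.000369), and its change in HK104 was 0.70 (FDR = 0.309). The change of the strain difference was 4.86 ± 0.67 (SE; FDR = 0.0228).

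WBGene00036573 rose with cold in both strains and further in HK104. It had 11.004 and 10.6 CPM in HK104 cold worms, against 1.77 and 1.61 CPM in AF16 cold worms, and 0.233 and 0.175 CPM in HK104 controls, against 0.555 and 0.420 CPM in AF16 controls. Its counts in controls were few, with 4 and 3 in HK104, against 9 and 7 in AF16. The change of the strain difference was 3.90 ± 0.60 (SE; FDR = 0.0247).

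Toward AF16, 2 genes met the rule for naming. WBGene00038448 had 5.20 and 3.43 CPM in HK104 cold worms, against 12.98 and 15.5 CPM in AF16 cold worms. In controls it had 1.69 and 1.52 CPM in HK104, against 0.801 and 0.360 CPM in AF16, where it was not called (FDR = 0.0963). The change of the strain difference was -3.18 ± 0.57 (SE; FDR = 0.0448). The strain difference after cold was -1.72 (FDR = 0.00947), and its call was lost without the second HK104 cold library (-1.44, FDR = 0.0544). WBGene00024634 had 3.67 and 3.30 CPM in HK104 cold worms, against 20.8 and 12.1 CPM in AF16 cold worms, whereas controls had 92.5 and 94.2 CPM in HK104, against 101 and 95.6 CPM in AF16. It fell with cold in both strains, with log2 fold changes of -4.74 in HK104 (FDR = 1.21e-05) and -2.57 in AF16 (FDR = 0.000134), and the change of the strain difference was -2.17 ± 0.37 (SE; FDR = 0.0371).

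The hybrid gave the reads of both alleles in separate libraries. Its cold library held 2816247 reads assigned to the HK104 allele and 3192412 assigned to the AF16 allele (46.9% HK104), and its control library 2485660 and 2849305 reads (46.6% HK104). With 1 library per condition nothing here was tested, and values are given over genes with at least 20 assigned reads in the cold library. These were 616 of the 956 genes called higher, 331 of the 753 called lower and 7607 of the 11794 not called. At 731 of the 947 called genes (77.2%) the allele inherited from the higher strain held more reads than the other, beside 4321 of the 7607 genes not called (56.8%). Genes higher in HK104 had a median HK104 share of 59.4%, genes lower in HK104 had 30.8%, and genes not called had 49.3%.

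The allele ratios are given by the size of the strain difference. Among genes higher in HK104, the median log2 ratio of HK104 over AF16 reads was 0.32 at 79 genes under 2-fold, 0.33 at 270 genes of 2- to 4-fold, 0.67 at 185 genes of 4- to 16-fold and 5.09 at 82 genes of 16-fold or more. Among genes lower in HK104 it was -0.72 at 29 genes under 2-fold, -0.75 at 169 genes of 2- to 4-fold, -1.71 at 84 genes of 4- to 16-fold and -5.61 at 49 genes of 16-fold or more. The ratio was thus most unequal in the class of 16-fold or more in both directions. The median strain differences of these classes were 5.25 and -6.92 (4.67 and -4.76 with lower bounds).

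The hybrid values were then divided by whether a gene was called in both states or after cold alone. At 352 of 387 genes called in both states (91.0%) the cold library held more reads of the allele of the higher strain, against 379 of 560 genes called after cold alone (67.7%). For strain differences of 2- to 4-fold, whose median absolute log2 value was 1.44 in the first class and 1.43 in the second, the shares were 82.5% of 126 genes called in both states and 66.1% of 313 genes called after cold alone. These 2 classes differed in their mix of directions. Among genes higher in HK104 the shares were 77.4% of 53 and 64.5% of 217 genes. Among genes lower in HK104 they were 86.3% of 73 and 69.8% of 96 genes. For 4-fold or more the shares over both directions were 95.9% of 241 genes and 68.6% of 159 genes, which were not matched in size. None of these differences was tested. Genes called in both states had passed a second test on the control libraries, so the classes may differ in how reliable their calls are. Matching by the estimated size does not remove that. The median log2 ratio of the allele of the higher strain over the other was 3.17 at the 241 genes, whose median absolute strain difference was 3.85 (3.68 with lower bounds). At the 159 genes it was 0.41, beside a median absolute strain difference of 2.57 (2.55 with lower bounds). Calls that held in all 4 fits without a cold library showed the same order: among genes higher in HK104, 128 of 137 called in both states (93.4%) and 69 of 109 called after cold alone (63.3%) had more HK104 reads. Among genes lower in HK104, 118 of 122 (96.7%) and 21 of 25 (84%) had more AF16 reads.

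**Figure D5:**
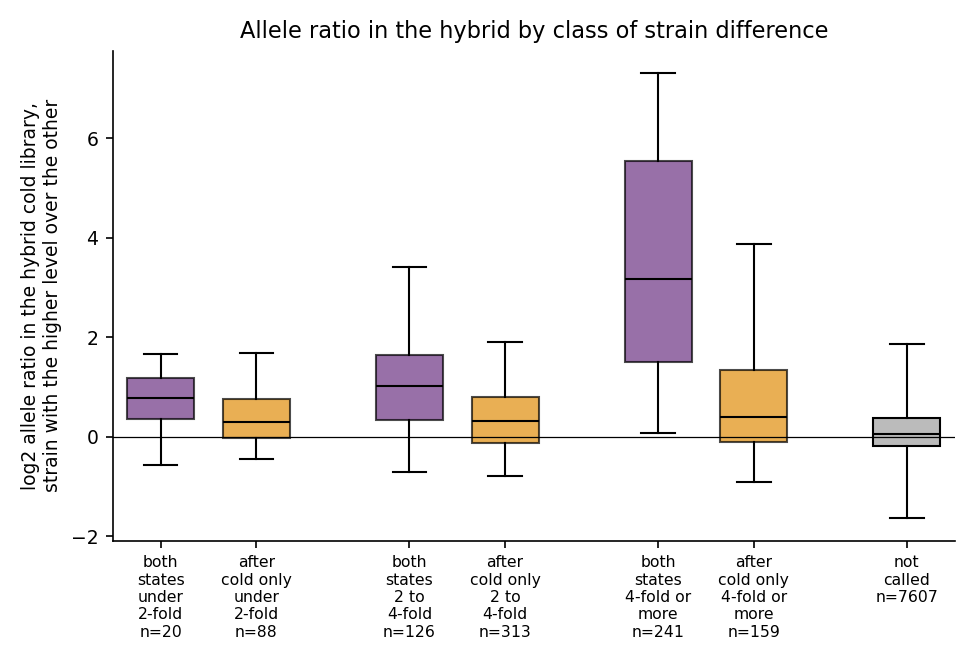
Log2 ratio of reads, the higher strain's allele over the other, in the hybrid cold library, by size of the strain difference (boxes, quartiles and median; whiskers, 5th to 95th percentile). Genes called in both states (purple) reach a median of 3.17 at 4-fold or more, and genes called after cold alone (orange) stay at 0.41, with genes not called in grey.

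The hybrid control library gave allele shares for most of the same genes. Over genes with 20 reads in each hybrid library, genes higher in HK104 in the cold strains had a median HK104 share of 59.2% in the cold library and 56.8% in the control library, and genes lower in HK104 had 31.9% and 35.6%. At 473 genes called after cold alone, the allele of the higher strain held more reads at 67.7% in the cold library and at 60.5% in the control library. At 354 genes called in both states these shares were 91.5% and 90.4%. At all 8099 tested genes with 20 reads in each library they were 59.2% and 56.9%. At the 8554 tested genes with 20 reads in the cold library the share there was 59.1%. Among the 64 genes that were called after cold and whose strain difference changed with cold, 46 had enough reads in the cold library, and 30 of them (65.2%) had more reads of the allele of the higher strain. Over the 37 with enough reads in each hybrid library these were 25 (67.6%) in the cold library and 17 (45.9%) in the control library, with median HK104 shares of 53.7% and 48.9%.

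Among called genes at the floor in a strain, the minority with enough hybrid reads mostly had few reads from that strain's allele. Of the 142 called genes at the floor in AF16, 37 (26.1%) had at least 20 reads in the hybrid cold library. Of these 37 genes, 30 had under 5% of reads from the AF16 allele, with a median of 0%, and 2 had at least 25%. Of the 275 called genes at the floor in HK104, 39 (14.2%) had that many reads. Of these 39 genes, 29 had under 5% of reads from the HK104 allele, with a median of 0%, and 4 had at least 25%. The other called floor genes had too few hybrid reads to be compared. Among genes not called, 426 of 7607 had 95% or more of their hybrid cold reads from either allele. Over all genes the HK104 allele held 46.9% of the reads of that library, and whether reads of both alleles were assigned equally well was not tested.

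The named genes differed in what their alleles did in the hybrid after cold. WBGene00024619 had 158 HK104 and 10 AF16 reads, 94.0% HK104 (exact 95% interval 89.3 to 97.1). WBGene00024112 had 19 HK104 and 1050 AF16 reads, 1.78% HK104 (1.07 to 2.76), and WBGene00038719 had 61 and 727 reads, 7.74% HK104 (5.97 to 9.83). These 3 genes were called in both states in the strains. Their log2 allele ratios of HK104 over AF16 were 3.92, -5.75 and -3.56, beside log2 strain differences of 4.66, -5.66 and -3.92. WBGene00029584 had 58 HK104 and 45 AF16 reads, 56.3% HK104 (46.2 to 66.1), beside a log2 strain difference of 4.00, and the interval includes equal shares. WBGene00036573 had 22 HK104 and 14 AF16 reads, 61.1% HK104 (43.5 to 76.9). WBGene00024634 had 55 HK104 and 125 AF16 reads, 30.6% HK104 (23.9 to 37.8), against 849 HK104 and 644 AF16 reads, 56.9% HK104 (54.3 to 59.4), in the control library. WBGene00025909 had only 2 HK104 and 7 AF16 reads and WBGene00038448 0 of either, too few to compare their alleles. In the strains after cold WBGene00025909 had 2493 and 1452 counts in HK104, and WBGene00038448 had 228 and 269 in AF16. Why so few hybrid reads were assigned to these 2 genes was not tested. The intervals of the allele shares cover counting error only.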

How the data were processed

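The deposited tables hold raw counts per gene as whole numbers, made by the authors. Per the submitters' processing notes, cutadapt, HISAT2 2.2.0, HTSeq 0.11.1 and edgeR were used. The genome build, the annotation, the use of strand and the rule that assigned hybrid reads to alleles are not given in the sources used here, so near-identical copies and overlapping genes are uncertain. Hybrid columns, named by strain and treatment, were read as allele counts of the 2 hybrid libraries.

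Samples were grouped by their titles. The 8 parental libraries were fitted together in edgeR 4.0.16 (R 4.3.3, limma 3.58.1) with filterByExpr (minimum count 10), TMM scaling, 1 coefficient per group and the quasi-likelihood F test with default dispersions. Calls are Benjamini-Hochberg FDR below 0.05 over all tested genes. A standard error is the absolute log2 fold change over the square root of F. Allele ratios carry a pseudocount of 0.5, and log2 CPM a prior count of 2. Named genes were the 2 largest differences in each direction among genes that were called, not overlapping, called also in the cold libraries alone and at 1 CPM or more in all 4, and for the change with cold the 2 largest changes in each direction among genes not already named and called in both tests, at the same minimum. The comparison, lists and rules were chosen with earlier results of these data known. Planned gene lists and markers need symbols and were not run. The computation was tested on simulated data, and alternatives included DESeq2 1.42.0. The authors' own result tables were not used.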

Additional observations from a re-analysis of the deposited data

Results flagged for a closer look

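At 67 genes the strain difference after cold differed from that in controls when the change between the states was tested (edgeR's quasi-likelihood test, FDR below 0.05). Among the named genes the change of the log2 strain difference with cold was 5.68 at WBGene00025909 (FDR = 0.00555), 4.86 at WBGene00029584 (FDR = 0.0228), 3.90 at WBGene00036573 (FDR = 0.0247), -3.18 at WBGene00038448 (FDR = 0.0448) and -2.17 at WBGene00024634 (FDR = 0.0371). Over 17 alternatives the adjusted p was below 0.05 at WBGene00025909 in 14 and at WBGene00038448 in 5, with ranges of 8.04e-24 to 0.0600 and 3.33e-05 to 0.176, and the direction was the same in all 17 at both. It was below 0.05 in 11 at WBGene00029584, in 7 at WBGene00036573 and in 8 at WBGene00024634. No group had enough libraries for a check of single outlying libraries.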

How the results depend on the processing

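Relative to 1709 genes called after cold (956 higher, 753 lower in HK104), the fits that left out 1 library called 727 to 1673 genes, 350 to 1008 higher and 377 to 1109 lower, where a group with 1 library was assumed to vary like the others. The likelihood ratio test called 1136 lower genes. Testing genes with 1 CPM in all 4 cold libraries gave 577 calls, 325 higher and 252 lower. The same numbers link the replicates of the titles, but no label names a shared batch. What the letter at the end of the names of both first cold libraries stands for is not explained. Deviations of same-numbered libraries correlated with r = 0.341 across genes between HK104 and AF16 cold worms and r = 0.145 between controls. With the replicate block 2119 genes were called after cold, and with it in the 4 cold libraries alone 1243 lower genes. The share of genes higher among the calls was 55.9%, and 33.7% to 71.8% over all settings, with 47.6% for DESeq2 size factors.

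The 67 genes whose strain difference changed with cold (59 and 8) became 24 (21 and 3) with upper-quartile scaling, 158 (125 and 33) with DESeq2, 335 (263 and 72) with the likelihood ratio test, 142 (117 and 25) without the filter, 11 (10 and 1) at 1 CPM and 144 (124 and 20) with the replicate block. With total counts only, edgeR called 0, of which 0 were higher and 0 lower, and 787 genes had an unadjusted p below 0.05. Bias-adjusted dispersions gave 5 lower genes. Leaving out a library gave 0 to 93 calls, 0 to 88 higher and 0 to 6 lower. The cause was not tested.

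Called genes at the floor in AF16 numbered 45 with a floor of 0 counts and 269 with 10 counts, and those in HK104 139 with a floor of 0. Called genes with 1 CPM in all 4 cold libraries, an alternative chosen after seeing the data, were 182 to 638 higher and 120 to 568 lower when a library was left out, and 407 lower with DESeq2. Scaling each allele by its total raised the share of called genes with more reads of the allele of the higher strain to 81.1%. Of the 8 named genes, 7 kept direction and call after cold in all 19 alternatives, and WBGene00038448 in 18. The median half-width of the 95% interval was 1.41 on the log2 scale in the lowest expression part, and the part of depth in it was not tested.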
